A study of Rattus norvegicus and Mus musculus with 34 samples.

Results

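The genes described here are the hemoglobin genes of the rat and the genes that mark the cells making red blood cells. The 11 members were found by symbol among the 20022 genes of the rat tables. They are 6 named genes (Hba-a1, Alas2, Slc4a1, Ahsp, Klf1 and Epor) and the 5 other symbols that begin with Hba or Hbb (Hba-a2, Hba-a3, Hbb, Hbb-b1 and Hbb-bs). Their gene identifiers in the files were 25632, 360504 and 287167 for Hba-a1, Hba-a2 and Hba-a3, 24440, 361619 and 689064 for Hbb, Hbb-b1 and Hbb-bs, and 25748, 24779, 293522, 304666 and 24336 for Alas2, Slc4a1, Ahsp, Klf1 and Epor. All 11 passed the filter on low counts in every comparison.

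RNA was sequenced from healing tissue of a bone defect made beside the teeth in the mandible of 23 wild-type male Sprague-Dawley rats. In the sensory nerve+ group the inferior alveolar nerve, which carries sensation from the lower jaw, was left intact. In the sensory nerve- group this nerve was cut and a segment was removed. Tissue was taken on day 3, 7 or 14, from 3 sensory nerve+ rats on day 3 and 4 rats in each of the other 5 groups, and all rats received penicillin after surgery. The tissue is a mixture of cells, the labels number the samples without naming animals, and p-values measure the spread between these samples. The 4 sensory nerve- samples of day 7 stand in a separate table with no sensory nerve+ sample, so that the table and the transection cannot be told apart on that day. Within the sensory nerve- group, the table and the day cannot be told apart where day 7 is compared with day 3 or 14. These samples also enter the fits over all days.

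Red blood cells are made in the bone marrow from nucleated precursors. The transcription factors GATA1 and KLF1 switch on the alpha and beta globin genes, while ALAS2 starts the synthesis of the heme that the globin chains carry. Early precursors need the hormone erythropoietin, which acts through its receptor, Epor, and the receptor is lost as they mature. The nucleus is then expelled, and the young red cell that enters the blood still holds globin RNA but makes no new transcripts. In bulk tissue a lower level of any of these RNAs can come from fewer cells or from less RNA per cell, and the 2 cannot be told apart.

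The promoters of these genes hold short motifs that erythroid factors are known to bind, and 4 of them are printed here because the members below moved together. RefSeq's table for the GRCr8 build held 9 of the 11 promoters, and Slc4a1 and Ahsp had no entry. Each line gives the 170 bases before the annotated start of the gene on its own strand, 5′ to 3′, with AGATAA or TGATAA, or their reverse complements TTATCT and TTATCA, in capitals. The windows are chr10:15842581-15842750 on the minus strand, chr1:167663722-167663891 on the minus strand, chrX:22895280-22895449 on the plus strand and chr19:40158652-40158821 on the minus strand. These coordinates belong to GRCr8 and are not those of mRatBN7.2, the build of the count files.
Hba-a1: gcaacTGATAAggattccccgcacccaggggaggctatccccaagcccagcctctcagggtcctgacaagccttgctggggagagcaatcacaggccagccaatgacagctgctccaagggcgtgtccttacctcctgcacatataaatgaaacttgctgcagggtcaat
Hbb: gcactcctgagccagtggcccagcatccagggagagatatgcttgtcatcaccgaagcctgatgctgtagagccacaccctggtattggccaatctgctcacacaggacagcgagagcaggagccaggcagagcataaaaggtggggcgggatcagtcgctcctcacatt
Alas2: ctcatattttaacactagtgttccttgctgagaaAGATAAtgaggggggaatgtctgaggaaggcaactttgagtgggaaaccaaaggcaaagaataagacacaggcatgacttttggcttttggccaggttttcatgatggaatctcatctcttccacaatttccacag
Klf1: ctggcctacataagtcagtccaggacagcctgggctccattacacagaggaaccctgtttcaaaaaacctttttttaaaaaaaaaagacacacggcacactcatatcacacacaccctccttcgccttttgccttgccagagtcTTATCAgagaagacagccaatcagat

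In the 250 bases before the start, searched on both strands, AGATAA or TGATAA was found in 5 of the 9 member promoters (55.6%), against 16.9% of the 33469 promoters of the table. These were Hba-a1 and Hba-a2, each with TGATAA 165 bases before the start, Alas2 with AGATAA 136 bases before, Klf1 with TGATAA on the reverse strand 26 bases before and Epor with AGATAA on the reverse strand 114 bases before. CCNCNCCC, letters of the kind that KLF factors bind, was found in 7 of the 9 (77.8%), against 42.8% of all promoters, and both kinds were found in 3 of the 9 (33.3%), against 4.28%. The Hba-a1 and Hba-a2 promoters were identical at 241 of 250 positions (96.4%), so that they do not count as separate examples. Those of Hbb-b1 and Hbb-bs were identical at 182 of 250 positions (72.8%), compared without gaps. Both showed CCNCNCCC 108 bases before the start, so that they may not be separate examples either. Hbb showed CCNCNCCC 98 bases before its start and neither of the GATA motifs. A match is a description of the letters and was not tested for binding.

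The rat libraries held 14854598 to 18742423 counts each, with a median of 17782980. Collagen gene Col1a1, a product of bone-forming cells, was found in every rat at 5246 to 36680 CPM. These are counts per 1000000 of a library size that was first scaled between rats, so that they are not shares of a library. The summed level of 8 skeletal muscle genes ran from 19.6 to 32375 CPM, and its group medians were 67.9 and 28.6 CPM on day 3 (sensory nerve+ and sensory nerve-), 15173 and 5082 on day 7, and 14579 and 763 on day 14. The part of muscle RNA in the differences given below was not tested. Levels are given throughout as CPM after TMM scaling over the 23 rats, and they compare 1 gene between rats, not 1 gene with another, since no transcript lengths were at hand. For sensory nerve- day 14 rat 3 the TMM factor was 0.496, which set its library size at 9056163 in place of 18274706 counts. CPM in that rat therefore lie well above its counts per 1000000 of the library.

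The 6 hemoglobin genes took between 0.263% and 50.1% of all counts in a rat. On day 3 they took 19.5, 6.48 and 5.40% in the 3 sensory nerve+ rats and 12.5, 4.09, 2.05 and 7.90% in the 4 sensory nerve- rats. On day 7 the shares were 0.379, 4.53, 0.343 and 27.6% with the nerve intact and 1.59, 8.95, 1.74 and 13.8% after transection. On day 14 they were 6.53, 1.38, 17.6 and 20.2% with the nerve intact and 26.8, 0.263, 50.1 and 32.4% after transection. The group medians were 6.48% and 6.00% on day 3, 2.46% and 5.35% on day 7, and 12.1% and 29.6% on day 14, in the same order. Both the lowest and the highest share among the 23 rats were found in the same group, sensory nerve- on day 14, and the ranges of the 2 nerve groups overlapped on each day.

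**Figure D1:**
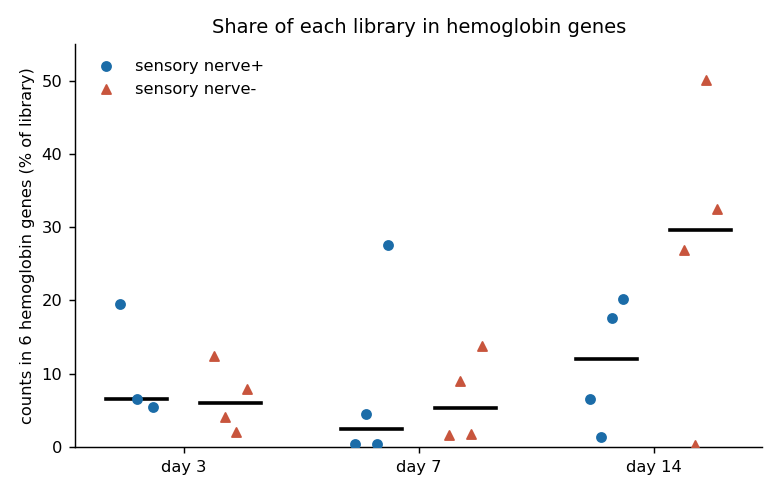
Share of all counts in the 6 hemoglobin genes, in percent, for each rat (points) by nerve group and day, with bars at the group medians. The 4 sensory nerve- rats of day 14 run from 0.263% to 50.1%, below and above the shares of all other rats.

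Hba-a1, an alpha globin gene, gave 106814, 26127 and 24578 CPM on day 3 with the nerve intact and 60693, 17095, 8867 and 36755 CPM after transection. On day 7 it gave 1565, 20925, 1220.3 and 170024 CPM with the nerve intact and 6996, 41291, 7279 and 69667 CPM after transection. On day 14 it gave 27731, 5387, 85651 and 96476 CPM with the nerve intact and 157265, 1113, 471407 and 221675 CPM after transection. Rat 4 of the sensory nerve+ group stood high on day 7 and rat 2 of the sensory nerve- group stood low on day 14, while the other 3 sensory nerve- rats of day 14 were above every sensory nerve+ rat of that day. The order of the group medians, from the lowest, was sensory nerve+ day 7 (11245 CPM), sensory nerve- day 7 (24285), sensory nerve+ day 3 (26127), sensory nerve- day 3 (26925), sensory nerve+ day 14 (56691) and sensory nerve- day 14 (189470). Neighbouring groups in this order overlapped in every case, for Hba-a1 and for the other 10 members.

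The other hemoglobin genes followed Hba-a1 from rat to rat. Counted per 10000 Hba-a1 counts of the same rat, which needs no scaling between libraries, Hba-a2 stood between 2561 and 3333 (median 2983, n = 23), a span of 1.30-fold. Hbb, the beta globin symbol with the most counts, stood between 5258 and 6944 (median 6121). Hbb-b1 stood between 795 and 1159 (median 951) and Hbb-bs between 463 and 924 (median 734). Hba-a3 stood between 102 and 175 (median 137). Over the same rats the Hba-a1 count itself ran from 19741 to 4269140, a 216-fold span. The 3 alpha symbols together made up 59.2% to 65.9% of hemoglobin counts in each rat. These genes are near copies of each other, so that how reads were divided among them is uncertain, and a fixed ratio between copies can come from the counting as well as from the RNA.

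Globin genes named for the embryo or fetus, and 1 of the 2 theta globin entries, Hbq1, were close to absent. The highest level in any rat was 1.21 CPM for Hbg1, 2.98 for Hbe1, 0.331 for Hbe2, 0.110 for Hbz and 0.740 for Hbq1. The other theta entry, Hbq1b, was found in every rat, at 0.812 to 218.6 CPM (17 to 1980 counts). A pair of entries outside the symbol rule, which RefSeq names Hbb-b2 and Hbbl1, took a median of 0.254% and 0.627% of counts, so that the shares above leave out part of the hemoglobin RNA. All of these genes were looked up after the values of the members had been seen.

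Alas2, the erythroid enzyme of the first step of heme synthesis, gave 2057, 457 and 388 CPM in the sensory nerve+ rats and 1274, 291, 149 and 595 CPM in the day 3 rats of the sensory nerve- group. On day 7 its levels were 25.1, 423, 16.0 and 2889 CPM and 115, 894, 105 and 1168 CPM, and on day 14 they were 339, 96.5, 1476 and 1795 CPM and 1852, 11.3, 8651 and 4666 CPM, in the same order of groups. The highest rat of each group was the one highest for Hba-a1. Per 10000 Hba-a1 counts, Alas2 stood between 101 and 217 in all 23 rats, with a median of 170.

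Slc4a1 encodes band 3, the anion exchanger of the red cell membrane. It gave 241, 68.9 and 46.7 CPM with the nerve intact and 201, 34.2, 23.7 and 66.2 CPM after transection on day 3, and 2.01, 84.1, 1.50 and 448 CPM and 10.8, 194, 13.5 and 166 CPM on day 7. On day 14 it gave 47.2, 86.2, 188 and 408 CPM with the nerve intact and 183, 0.902, 1216 and 686 CPM after transection. The lowest level of all, 0.902 CPM, rested on 16 counts.

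Ahsp encodes a chaperone that binds free alpha globin. Its levels were 66.6, 13.6 and 9.30 CPM in the sensory nerve+ rats and 43.5, 8.45, 3.96 and 17.0 CPM in the day 3 rats of the sensory nerve- group, and 0.735, 11.4, 0.812 and 105 CPM and 2.59, 27.0, 4.25 and 37.6 CPM on day 7. On day 14 they were 13.4, 26.6, 24.1 and 91.1 CPM and 64.7, 1.18, 162 and 147 CPM. Again the groups overlapped on each day, and rat 2 of the sensory nerve- group of day 14 was the lowest of its group.

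Klf1, the transcription factor gene of nucleated erythroid precursors, was found in every rat, with 10 to 461 counts. On day 3 it gave 16.3, 5.09 and 3.08 CPM in the sensory nerve+ rats and 13.5, 3.23, 1.73 and 4.55 CPM in the sensory nerve- rats. On day 7 it gave 0.539, 3.65, 0.513 and 24.8 CPM and 0.787, 6.88, 1.12 and 9.38 CPM, and on day 14 4.59, 13.4, 8.50 and 26.4 CPM and 19.1, 0.564, 45.7 and 40.5 CPM. Rat 2 of the sensory nerve+ group of day 14 had the lowest Hba-a1 level of its group, at 5387 CPM, but the second highest Klf1 level.

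Epor, the erythropoietin receptor, gave 3.34, 3.10 and 1.49 CPM with the nerve intact and 2.38, 0.617, 1.21 and 1.55 CPM after transection on day 3. On day 7 it gave 0.833, 1.25, 0.855 and 2.63 CPM and 0.956, 2.49, 0.831 and 2.12 CPM, and on day 14 2.51, 7.81, 1.32 and 5.16 CPM and 8.76, 1.75, 5.08 and 5.64 CPM. It had the narrowest range of the members, with 13 to 156 counts per rat. Rat 2 of the sensory nerve+ group and rat 1 of the sensory nerve- group of day 14 were its highest.

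**Figure D2:**
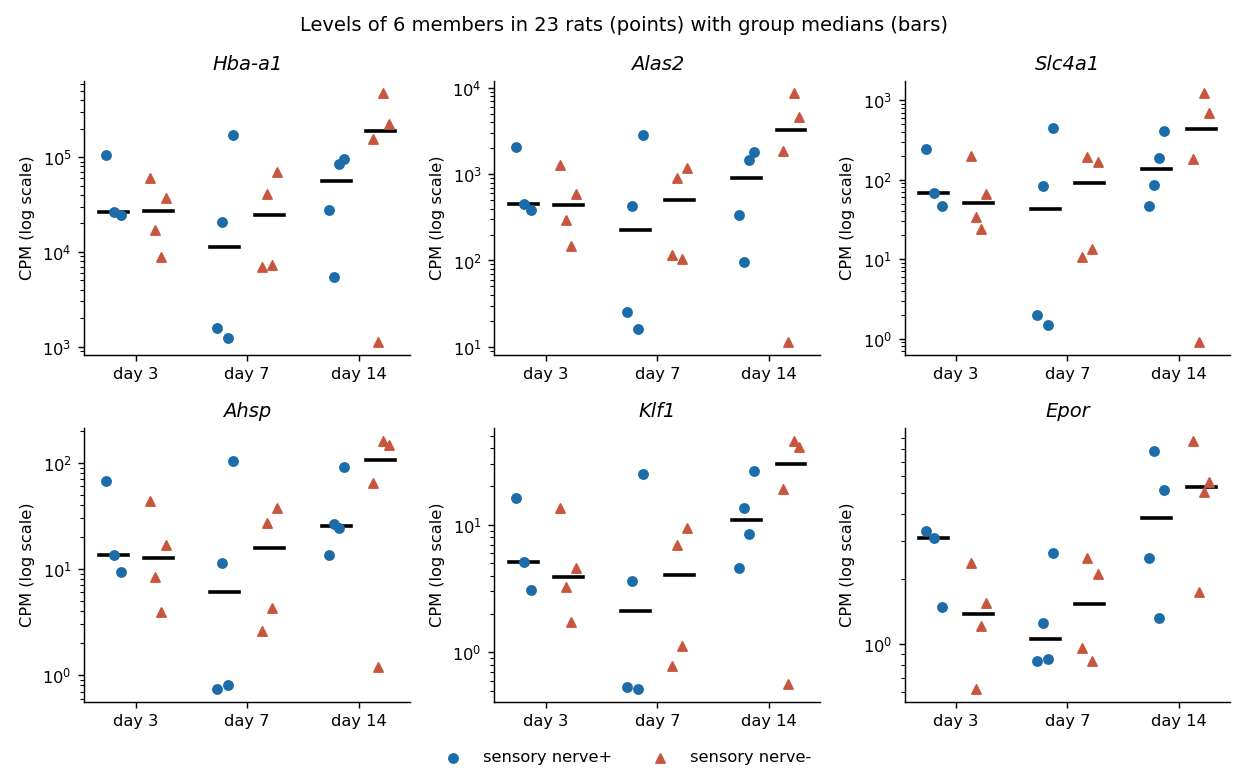
Level of Hba-a1, Alas2, Slc4a1, Ahsp, Klf1 and Epor in each rat, in TMM CPM on a log axis, by day and nerve group, with bars at the group medians. In each panel the points of the 2 nerve groups overlap on every day, and the sensory nerve- rats of day 14 run from 1113 to 471407 CPM for Hba-a1.

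The members that are not hemoglobin genes were set against Hba-a1 across the 23 rats, on the scale log2(CPM + 0.5). The correlation with Hba-a1 was r = 0.996 and rho = 0.990 for Alas2, r = 0.955 and rho = 0.917 for Slc4a1, r = 0.940 and rho = 0.925 for Ahsp, and r = 0.901 and rho = 0.901 for Klf1. In each of these 4 the permutation p was 1e-05, which is the smallest that 100000 permutations give, and it was the same after adjustment over the 5 genes. For Epor the correlation was r = 0.578 (permutation p = 0.00431) and rho = 0.649 (permutation p = 0.00112). The 2 rats farthest from the median of Hba-a1 were rat 3 of the sensory nerve+ group on day 7 and rat 2 of the sensory nerve- group on day 14. Without them r was 0.994 for Alas2, 0.930 for Slc4a1, 0.918 for Ahsp, 0.873 for Klf1 and 0.571 for Epor. Within the 11 sensory nerve+ rats r for Klf1 was 0.832 and for Epor 0.381 (permutation p = 0.246), and within the 12 sensory nerve- rats it was 0.967 and 0.748. After the mean of each of the 6 groups was taken away, r was 0.912 for Klf1 and 0.527 for Epor.

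Ratios to Hba-a1 within a rat show where the members did not move together. Klf1 stood at a median of 1.67 counts per 10000 Hba-a1 counts and lay between 0.970 and 5.07 in 22 rats. In the remaining rat, rat 2 of the sensory nerve+ group on day 14, it stood at 24.9, from 268 Klf1 counts (95% Poisson interval 22.0 to 28.1). The next value, 5.07, came from the rat with the fewest Hba-a1 counts and rested on 10 Klf1 counts (interval 2.43 to 9.32). These intervals take the Hba-a1 count as fixed and cover counting error only.

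The same rat, sensory nerve+ day 14 rat 2, was highest for Slc4a1, with 160 per 10000 Hba-a1 counts against 47.1 in the next rat and a median of 22.5. It was also highest for Ahsp, with 49.4 against 10.6 in the next rat and a median of 5.40. Gata1, the erythroid transcription factor gene, stood at 20.4 in this rat, against a median of 1.40 over the 23. Alas2 did not share this pattern and stood within the range of the other rats. Without this rat the highest value was 5.81 times the lowest for Slc4a1, 3.78 times for Ahsp and 5.22 times for Klf1.

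**Figure D3:**
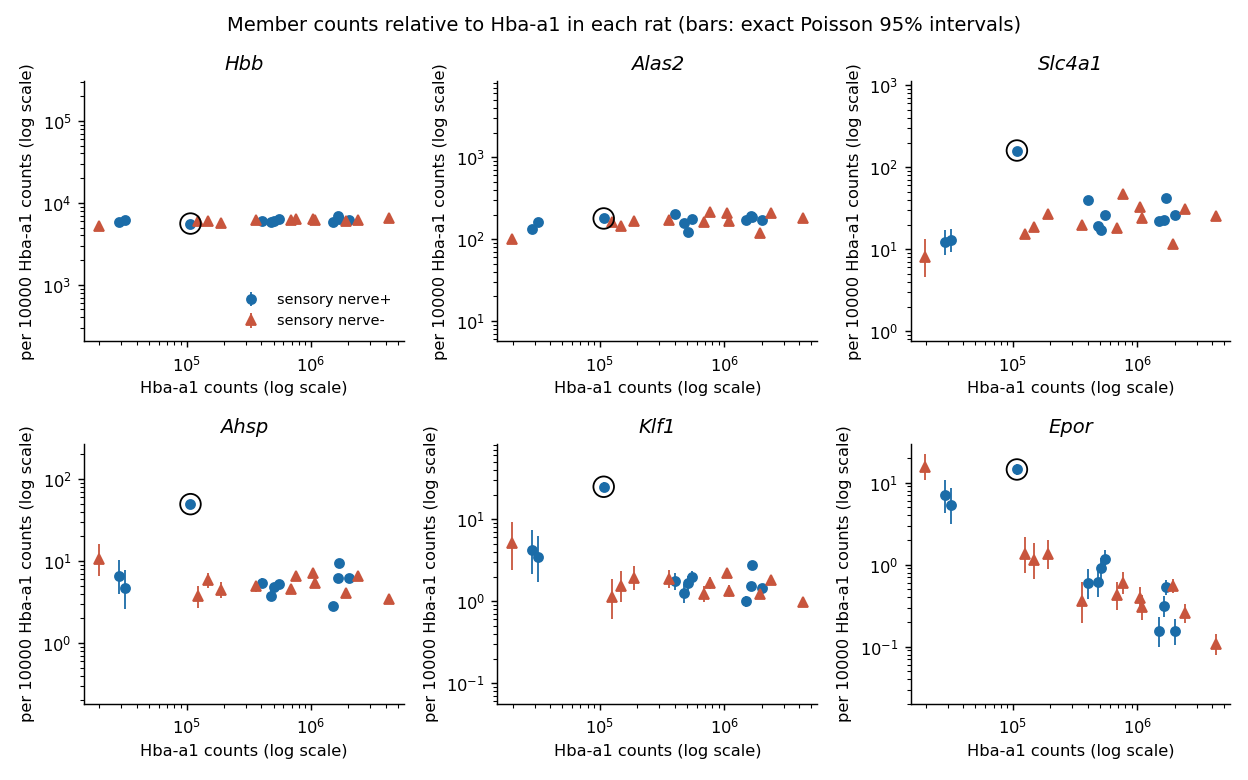
Counts of Hbb, Alas2, Slc4a1, Ahsp, Klf1 and Epor per 10000 Hba-a1 counts against the Hba-a1 counts of the same rat, both on log axes, with 1 point for each of the 23 rats and exact 95% Poisson intervals as bars. Hbb and Alas2 keep to a narrow band, whereas sensory nerve+ day 14 rat 2 (ringed) lies above all other rats for Slc4a1, Ahsp and Klf1.

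Markers of other blood-forming cells were read in the same rat. Mpo, the myeloperoxidase gene of granulocyte precursors in marrow, gave 10821 counts there against 927 in the next rat and a median of 42, so that 80.8% of the Mpo counts of all 23 rats came from this rat. Elane, with 2626 counts, Prtn3, with 2306, and Ctsg, with 5157, encode proteases made at the same stage and were highest in it too. The summed level of the 8 granulocyte precursor genes was 1963 CPM in this rat, 261 CPM in the next and 34.3 CPM at the median. The B cell precursor sum was 602 CPM against 485 in the next rat, and the mature neutrophil sum 7534 CPM against 6486. Cd79a had the highest mean level of the B cell list and gave 4708 counts in this rat. Vpreb1 (209 counts) and Rag1 (851) were also highest in it, whereas Dntt gave 164 counts here and 403 in rat 4 of the same group. Platelet and megakaryocyte genes did not stand out there, with 365 CPM against a median of 398. The part of any of these cells in the Klf1 ratio was not tested.

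**Figure D4:**
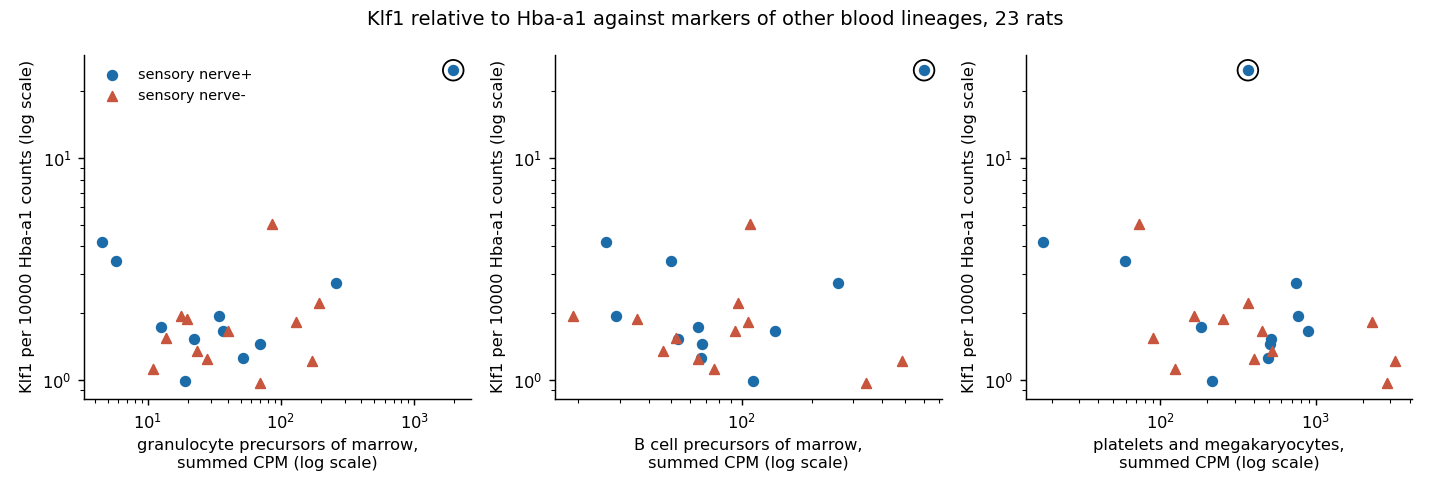
Klf1 counts per 10000 Hba-a1 counts of each rat against the summed level in CPM of granulocyte precursor genes (left), B cell precursor genes (middle) and platelet and megakaryocyte genes (right), all on log axes, with a point per rat by nerve group. Sensory nerve+ day 14 rat 2 (ringed) lies alone at 24.9 and 1963 CPM in the left panel, where the other 22 rats lie at or below 5.07 and 261 CPM, and amid the other rats on the platelet axis at 365 CPM.

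Epor followed a different ratio. It stood between 0.108 and 15.7 per 10000 Hba-a1 counts, and its 2 highest values were 15.7 in rat 2 of the sensory nerve- group and 14.5 in rat 2 of the sensory nerve+ group of day 14. These are the rats with the lowest hemoglobin share of their groups. Over the 23 rats Epor CPM spanned 14.2-fold and Hba-a1 CPM 424-fold, so that a low Hba-a1 count by itself gives a high ratio. Rat 2 of the sensory nerve- group had the lowest Epor level of its group, 1.75 CPM, and rat 2 of the sensory nerve+ group the highest, 7.81 CPM. For all 10 ratios the ranges of the 2 nerve groups overlapped on each of the 3 days.

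The genes whose levels were most like those of Hba-a1, by Pearson's r on the same log2 scale over the 23 rats among 15857 genes, were Hbb (r = 0.9997), Hba-a2, Hbb-b1, 2 more entries that RefSeq names Hbb-b2 and Hbbl1, Hba-a3, Alas2, Hbb-bs, Cd52 and Add2 (r = 0.987). Add2 encodes a protein of the red cell membrane skeleton, and Cd52 a surface glycoprotein of white cells. Slc4a1 stood 21st in this order, Ahsp 31st, Klf1 54th and Epor 589th. The median r over all genes was -0.06.

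Among the 10 genes most like Klf1 were Ahsp (r = 0.988), Trim58, Tspo2, Gata1 (r = 0.977), Trim10, Slfn14, Hemgn, Epb42 and Hist3h2ba. Most of these are known from erythroid precursors, with Epb42 in the membrane and Trim58 at the loss of the nucleus. Epor stood 209th in this order. The 10 genes most like Epor, which were looked up after its values had been seen, were led by Dgkg (r = 0.947) and held no hemoglobin gene. The median r with Epor was 0.887 over the tested mature neutrophil genes, 0.798 over the platelet genes and -0.08 over all genes. With Klf1 the neutrophil genes had a median r of 0.828 and the platelet genes of 0.849, so that Epor was not alone in this. With Hba-a1 the neutrophil genes had a median r of 0.584 and the platelet genes of 0.832. These correlations share libraries and scaling and are descriptions.

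The first comparison asked whether transection of the sensory nerve changed these genes on a given day. On day 3 the 11 members had log2 fold changes of sensory nerve- over sensory nerve+ below 0, with -0.79 for Hba-a1 (SE 0.83), and on day 7 the Hba-a1 value was -0.64 (SE 1.62). On day 14 the Hba-a1 level averaged 212865 ± 195663 CPM (SD, n = 4) after transection and 53811 ± 44193 CPM (SD, n = 4) with the nerve intact, a log2 fold change of 1.97 (SE 1.66). Epor had a log2 fold change of 0.32 on day 14 (SE 0.62). By edgeR's quasi-likelihood test with Benjamini-Hochberg adjustment over all genes, the adjusted p for Hba-a1 was 1 on day 3, 1.00 on day 7 and 0.683 on day 14. None of the 11 members passed adjusted p 0.05 on any day. The background in each of the 3 comparisons was 0% of all genes tested, with 122, 215 and 1362 genes at an unadjusted p under 0.05, and with DESeq2 the counts were 0, 1 and 104 genes, none of them a member. For Hba-a1 the day 14 direction was the same when any 1 rat was left out (log2 fold change 1.20 to 2.45). On day 3 it was -1.33 to 0.25, with the value above 0 when rat 1 of the sensory nerve+ group was left out, and on day 7 it was 2.02 without rat 4 of the sensory nerve+ group and -1.40 to -0.30 without any other rat.

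No gene of the lists around the members passed on any day. On day 14, 0 of 14 heme synthesis genes, 0 of 12 erythroid transcription factors, 0 of 20 red cell membrane genes, 0 of 11 genes of erythropoietin signalling and 0 of 19 genes of the late red cell passed the test between the nerve groups. The median log2 fold changes of these lists were 0.32, 0.78, 0.24, 0.19 and 1.22, against 0.03 over all genes tested. Named by their level, the mitochondrial carrier gene Slc25a39 had a value of 1.79 (SE 0.86, adjusted p = 0.519) and Bpgm, which makes the ligand that lowers the oxygen affinity of hemoglobin, 1.81 (SE 1.12, adjusted p = 0.568). The 10 platelet and megakaryocyte genes, which mark another product of the marrow, had a median of 1.84, with 1.96 for Pf4 (SE 0.99, adjusted p = 0.519). Over all 3 days together, the transection value of Hba-a1 was 0.18 (SE 0.91, adjusted p = 0.983), and the test of whether the transection value differed between days gave an adjusted p of 0.998 for every member. These adjusted p-values are from edgeR, and both of these tests called 0% of all genes (811 and 475 at an unadjusted p under 0.05).

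**Figure D5:**
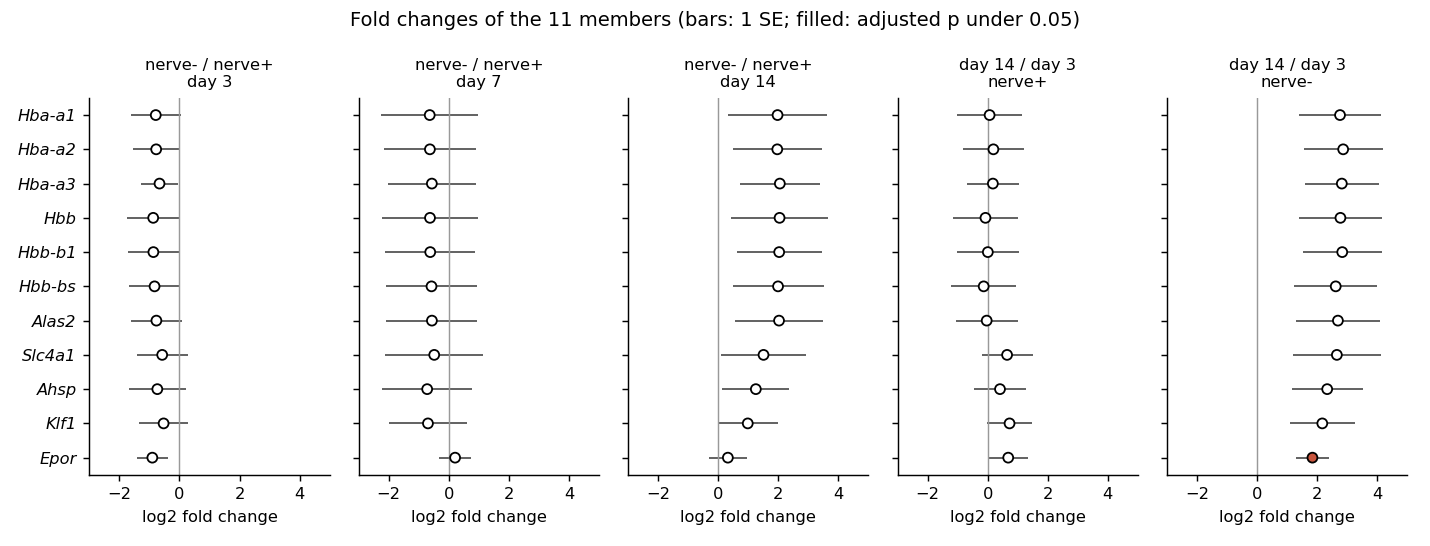
Log2 fold change and its standard error (bars) for each of the 11 members in the transection comparisons of days 3, 7 and 14 and in the comparison of day 14 with day 3 within each nerve group. Filled points mark an adjusted p under 0.05, and Epor between days 14 and 3 in the sensory nerve- group, at 1.84, is the only one.

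The second question was how these genes changed over healing within each nerve group. In the sensory nerve- group, pairs that include day 7 also differ by the separate table of that day. Only Epor passed the test in any of these 6 comparisons by edgeR. In the sensory nerve- rats it rose from 1.44 ± 0.74 CPM on day 3 (SD, n = 4) to 5.31 ± 2.87 CPM on day 14 (SD, n = 4), with 1.84 on the log2 scale (SE 0.56) and an adjusted p of 0.0476 by edgeR. Here 1 of 11 members was called, against a background of 23.5% of all 14449 genes tested, and the Epor levels of the 2 days overlapped. The call was lost with scaling to the library total (1.38, adjusted p = 0.133) and in 7 of the 8 fits that left out 1 rat (adjusted p 0.059 to 0.117, edgeR). The mature neutrophil sum of these 2 groups ran from 159 to 1734 CPM on day 3 and from 946 to 6486 CPM on day 14. These ranges overlapped, and the 2 days are different rats. On day 14 rat 4 was highest for this sum, whereas rat 1 was highest for Epor. Mmp9 had the highest mean level of the neutrophil list, at 664 CPM over all rats. Whether the sum stands for neutrophils alone was not tested, nor was its part in the Epor change.

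Hba-a1 in the same comparison differed by 2.76 on the log2 scale (SE 1.36) with an adjusted p of 0.171 by edgeR, and Klf1 gave 2.17 with an adjusted p of 0.172. By edgeR these results depended on rat 2 of the sensory nerve- group of day 14, the lowest of its group for Hba-a1. Without it all 11 members passed the edgeR test, with 3.17 for Hba-a1 (adjusted p = 0.022), in a fit that called 29.8% of all genes tested. The outcome depended on the tool as well. DESeq2 on all 8 rats called 6 of the 11 members, with 2.80 for Hba-a1 (adjusted p = 0.035), and 30.3% of all genes given an adjusted p. Between days 7 and 14 in the sensory nerve- group Hba-a1 had a value of 2.78 (SE 1.72, adjusted p = 0.355, edgeR) and Epor 1.74 (adjusted p = 0.138), with 0 of 11 members called and a background of 0.0138%. DESeq2 called Epor alone among the members there (adjusted p = 0.030), 1 of 11, and 12.3% of all genes given an adjusted p.

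In the sensory nerve+ group no member was called between any days by edgeR. The background was 6.67% of genes between days 3 and 7, 0.0202% between days 7 and 14 and 5.78% between days 3 and 14. Epor between days 7 and 14 had the smallest unadjusted p of the members in this group, 0.0301, where it differed by 1.64 on the log2 scale (SE 0.62) with an adjusted p of 0.503 by edgeR. In the sensory nerve- group between days 3 and 7 no member was called either, against a background of 10.5%. Counted as groups of rats that do not overlap, 0 of 11 members stood apart in any comparison. The share of all genes that did was 1.61%, 0.754% and 3.37% for transection on days 3, 7 and 14, 25.4%, 5.78% and 24.5% for the pairs of days with the nerve intact, and 21.7%, 12.3% and 26.7% for the same pairs after transection.

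The lists around the members were read between days 3 and 14 in the sensory nerve- group, where 23.5% of all genes tested were called. Here 4 of 12 erythroid transcription factor genes rose, among them Tal1 (2.59, SE 0.66, adjusted p = 0.0264, edgeR), Zfpm1 (0.89), which encodes the partner FOG1 of GATA1, and Ldb1 (0.74). Gata1 itself (2.93, adjusted p = 0.107) and Klf1 (2.17, adjusted p = 0.172) did not pass by edgeR. Of the 14 heme synthesis genes 1 rose, the mitochondrial glycine carrier Slc25a38 (1.18). Of the 11 genes of erythropoietin signalling 3 rose, Stat5b (1.10), Cish (1.27) and Epor. The part of cells other than erythroid ones in the calls of these lists was not tested. Leaving out 1 rat at a time ended the call in 7 of 8 fits for Tal1, 5 for Zfpm1, 2 for Ldb1 and 6 for Cish, and in none for Slc25a38 and Stat5b. None of the 19 genes of the late red cell passed, though all 19 had values above 0 and their median was 1.84. For comparison the median of all genes was -0.05, and 37.8% of the 3396 genes called were higher on day 14, or 26.0% of 1184 with scaling to the library total. With the nerve intact, 5.78% of all genes were called between the same days. Of the erythroid transcription factor genes 0 of 12 passed there, though all 12 had values above 0 (median 0.29). Of the heme synthesis genes 0 of 14 passed, and of the late red cell genes 0 of 19. Of the 11 erythropoietin signalling genes 1 rose, Stat5b (1.01, adjusted p = 0.0362, edgeR), a call lost in 6 of 7 fits with 1 rat left out.

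Of the 19 red cell membrane genes tested in the sensory nerve- group, 1 rose and 1 fell between days 3 and 14. The water channel gene Aqp1 rose (2.14), and the glucose transporter gene Slc2a1 fell by 1.88 on the log2 scale. Both are also used by other cells, Aqp1 by small vessels, and 4 of 8 endothelial genes rose in the same comparison. In the sensory nerve+ group 3 of 19 rose and 1 fell, where 5.78% of all genes tested were called. Xk (1.87) and Aqp1 (2.22) were among those that rose, and Slc2a1 was lower by a log2 fold change of -2.82. Between days 3 and 7 Ank1 (4.65) and Tmod1 (4.05) rose in the sensory nerve+ group and Tmod1 (3.24) and Aqp1 (1.78) in the sensory nerve- group. With 1 rat left out, the Ank1 call was lost in 5 of 7 fits, that of Tmod1 in 3 of 7 with the nerve intact and 6 of 8 after transection, and that of Aqp1 in 6 of 8. Ank1 and Tmod1 are used in muscle as well as in red cells, and 8 of 8 muscle genes rose beside them with the nerve intact (median 8.36) and 6 of 8 after transection. The part of vessels and muscle in these changes was not tested. With 1 rat left out, Xk and Aqp1 lost the call of days 3 to 14 in 6 of 7 fits each with the nerve intact, and Slc2a1 lost it in 4 of 7 with the nerve intact and 4 of 8 after transection.

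Of the 10 genes that clear free hemoglobin and heme, 1 was called between days 3 and 14 with the nerve intact. After transection 2 were called, 1 in each direction. Over all genes tested, 5.78% were called with the nerve intact and 23.5% after transection. Hmox1, which breaks down heme, fell by 4.64 on the log2 scale between days 3 and 14 in the sensory nerve+ rats (SE 0.60, adjusted p = 0.0258, edgeR), from 1106 ± 903 CPM (SD, n = 3) to 43.6 ± 16.7 CPM (SD, n = 4). In the sensory nerve- rats it fell by 3.42 (SE 0.41, adjusted p = 0.00254, edgeR), from 806 ± 377 to 77.4 ± 28.6 CPM (SD, n = 4 each). The iron exporter gene Slc40a1 rose in the sensory nerve- rats (2.35, SE 0.38, adjusted p = 0.00578, edgeR). No left-out rat ended the calls in the sensory nerve- group, while the Hmox1 call of the sensory nerve+ group was lost in 4 of 7 fits. Among the platelet and megakaryocyte genes, 4 of 10 rose between days 3 and 14 in the sensory nerve- group, among them Gp9 (3.12) and Tubb1 (3.16). In the sensory nerve+ group 0 of 10 were called (median 0.18). The backgrounds of these counts were 23.5% and 5.78% of all genes tested. The calls of Gp9 and Tubb1 were each lost in 7 of 8 fits that left out 1 rat. The test of whether the transection value differed between days called no gene, with 0.998 as the smallest adjusted p (edgeR).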

How the data were processed

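RNA-seq was read for 23 samples of rat healing tissue. The deposited values are expected counts per gene that the authors made from DNBSEQ libraries. The submitters' processing notes name HISAT, Bowtie2 and the build mRatBN7.2, and the counting program is not given in the sources used here. Of the values 37% are whole, and all were rounded. A table of cultured mouse macrophages was not used.

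Genes with low counts were removed with filterByExpr, libraries were scaled with TMM, and each comparison was fitted on its own rats with edgeR 4.0.16 (quasi-likelihood test, R 4.3.3), with Benjamini-Hochberg adjustment over all genes tested and a threshold of 0.05. SE is the log2 fold change divided by the root of the F statistic. DESeq2 1.42.0 was an alternative. Levels are TMM CPM over the 23 rats, and correlations used log2(CPM + 0.5) and 100000 permutations. The method was checked on simulated data with known changes. Total counts of 14854598 to 18742423 per rat bear on the counting error, and the Poisson intervals cover that error only. The precision of the tests rests on the spread between the rats of a group.

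The genes named are the members, the 2 highest genes of each list and up to 3 called genes with the smallest p per list and comparison, and the 10 genes most like Hba-a1 and Klf1, of which some are not reported here. The members and lists were chosen with earlier results of these data known. Alternatives were other scalings and filters, no filter, 1 fit over all rats, the replicate number as a block, and leaving out each rat. In no comparison was every correlation between rats of the same number over 0.1, and the main fits did not pair them. The mean of these correlations ran from -0.11 to 0.153, and for transection on day 7 it was 0.153 against -0.0541 between other numbers. Whether rats of the same number have something in common was not tested further.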

Additional observations from a re-analysis of the deposited data

Results flagged for a closer look

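In groups of 4 rats, a highest or lowest rat was marked where its gap to the next rat exceeded 0.829 of the group's range. Of 85 groups of values examined, 16 were marked. Chance gives about 1 in 20 where values have a normal spread. The CPM and ratios were taken without logs and are skewed, so that the 16 cannot be set against that share. The members move together, so that marks in the same rat are not separate findings.

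Rat 4 of the sensory nerve+ group on day 7 gave 10 of these marks. It stood above the other 3 rats with 170024 CPM for Hba-a1, 51134 for Hba-a2, 2104 for Hba-a3, 106269 for Hbb, 16044 for Hbb-b1, 12484 for Hbb-bs, 2889 for Alas2, 104.9 for Ahsp and 24.83 for Klf1. Its hemoglobin share was 27.56% of counts, against 0.343% to 4.53% in the other 3.

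Rat 4 of the sensory nerve+ group on day 14 stood above its group for Ahsp, with 91.09 CPM against at most 26.6 in the others. Rat 2 of the same group stood apart in its ratios per 10000 Hba-a1 counts, with 49.43 for Ahsp, 24.9 for Klf1 and 14.49 for Epor. The Epor ratio also stood apart in rat 2 of the sensory nerve- group on day 14 (15.7) and in rat 3 of the sensory nerve- group on day 3 (1.367, against 0.361 to 0.422 in the others). Both of these sensory nerve- rats had the lowest Hba-a1 level of their groups, 1113 and 8867 CPM, which by itself raises the ratio.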

How the results depend on the processing

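Of 1197 alternative values for 70 results on the members, 1021 kept their direction and their side of the threshold. The 5 hemoglobin genes other than Hba-a1 entered together, as the median of their log2 fold changes and of their adjusted p-values. Such a median is not a test, and these genes were not counted singly. Another 158 changed sign without being called in either fit, 126 of them with 1 rat left out and 32 with all rats kept. A call was lost in 9 and gained in 9, and none changed sign while called. With DESeq2 more genes were called: 1 and 104 for transection on days 7 and 14, 1 over all days, 2751, 335 and 3408 for day 7 over 3, 14 over 7 and 14 over 3 with the nerve intact, and 3224 and 1991 for the first 2 of these pairs after transection. Scaling to the library total gave 579, 13 and 547 with the nerve intact, and 21 and 1184 for day 14 over 7 and 14 over 3 after transection, and it moved the median of all genes by -0.44 for transection on day 14, -0.16 over all days, and -0.39 and -0.37 for day 14 over 7 and 14 over 3 after transection. The share of calls that were higher went from 73.2% to 87.6% for day 7 over 3 and from 46.6% to 65.4% for day 14 over 3 with the nerve intact, and from 2 of 2 to 3 of 21 for day 14 over 7 after transection. The library total without hemoglobin genes gave 1 for day 14 over 7 after transection, and 1 fit of all rats gave 2606 for day 14 over 3 with the nerve intact and 2287 and 927 for the first 2 pairs after transection. The cause of these shifts was not tested.

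The replicate number as a block, which does not pair the rats, gave 122, 0 and 0 genes with the nerve intact and 2 and 0 for the first 2 pairs after transection, against 1002, 3, 871, 1524 and 2 without it. It gave 2350 for day 14 over 3 after transection, and it changed the direction of Hba-a1 for transection on day 7 (1.18, not called).

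Leaving out 1 rat gave 254 to 1547, 0 to 28 and 0 to 3133 genes with the nerve intact and 0 to 1359, 0 to 814 and 1620 to 4346 after transection, and 0 genes in each transection comparison. The highest counts of the day 14 comparisons came without rat 2 of day 14 in either nerve group. The correlation of Epor with Hba-a1 within the sensory nerve+ rats was 0.381. Without a filter on low counts Epor lost its call (adjusted p = 0.062, edgeR). Leaving out rats was not run for the test between days. Of 953 alternative values for 61 calls of list genes, added after the data were seen, 645 kept the call and 308 lost it. Depth limits Klf1 and Epor, with 10 and 13 counts in the lowest rats.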
